A study of Mus musculus with 8 samples.

Results

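Endothelial junction and surface genes were followed in 8 pools of cells sorted from mouse yolk sacs at embryonic day 11.5. The yolk sac is the tissue outside the embryo in which the first vessels and blood cells form. The set held 10 genes, taken from a list of endothelial adhesion and surface genes, and all 10 were among the 24454 gene rows of the count table. Cdh5 headed the list because its protein, VE-Cadherin, was stained for sorting. The other members were Pecam1, Cldn5, Esam, Icam2, Emcn, Cd34, Mcam, Egfl7 and Nos3. All embryos were C57BL/6 and carried GFP on 1 allele of the miR144/451 locus, whose microRNAs are made by red cell precursors, so the endothelial pools bore the reporter too. The double positive group was 2 pools of 24 cells that stained for VE-Cadherin and were positive for GFP (replicates 7 and 8). The erythroid group was 3 pools of 25 cells with GFP and without VE-Cadherin (replicates 4 to 6). The endothelial group was 3 pools of 25 cells with VE-Cadherin and without GFP (replicates 1 to 3). Whether the pools came from different embryos is not stated, so the p-values measure only how far pools differ, and part of that may be technical.

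Endothelial cells hold on to each other through adherens junctions, built from VE-Cadherin and the catenins bound to its tail, and through tight junctions, built from claudins and immunoglobulin-type proteins. Further surface proteins of the vessel wall, such as ICAM-2 and the sialomucins, face the blood and meet passing white cells. The yolk sac vessels carry embryonic red cells, which do not form such junctions, and lie against the visceral endoderm, an epithelium that seals itself with E-cadherin and other claudins.

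Total counts were 4637930 and 4818074 in the double positive, 5291843 to 7618444 in the erythroid, and 3723128 to 4439165 in the endothelial libraries. Levels are given as CPM, read counts scaled to an effective library size with edgeR's TMM factors, so they are not plain shares of a library. The labelled cell types were checked against marker lists. The 14 endothelial markers outside the set summed to 580 and 733 CPM in the double positive, at most 0.317 CPM in the erythroid, and 4831 to 5649 CPM in the endothelial libraries. The 12 erythroid markers summed to 79132.5 and 138064 CPM in double positive libraries, and the 18 visceral endoderm markers to 104717 and 102041 CPM. In the endothelial libraries these lists summed to 52.8 to 67.0 CPM and 53.0 to 163 CPM. The 10 mesenchyme and mesothelium markers summed to 332 and 311 CPM in double positive libraries, against at most 5.70 CPM in endothelial ones. The double positive libraries thus held transcripts of cell kinds that their label does not name. The 10 megakaryocyte markers summed to 10.5 and 78.3 CPM in double positive and to 660 to 1058 CPM in endothelial libraries. The 14 macrophage markers summed to 304 and 290 CPM in double positive libraries and to 1661, 4285 and 1765 CPM in endothelial replicates 1, 2 and 3, with all 14 at 0 in the erythroid libraries. Fcgr3 alone gave 197 and 103 CPM of the double positive sums, and the other 13 markers summed to 106 and 187 CPM there. Of these, Mrc1 gave 66.1 and 91.5 CPM. Adgre1, Cx3cr1, C1qa, C1qb, C1qc, Tyrobp and Spi1 had 0 counts in double positive replicate 7 and 3 to 68 in replicate 8.

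Promoter sequences are shown because endothelial genes are known targets of ETS factors. RefSeq windows of 300 bases (GRCm38.p6), 250 before and 50 from the start site on, were matched for Cd34, Cldn5, Egfl7, Emcn and Mcam, with 7 windows in all, and not for Cdh5, Pecam1, Esam, Icam2 and Nos3. Of ETS-type sites only the forms AGGAAG and CGGAAG were searched, on both strands. The shorter GGAA in other surroundings was not counted. The forms differ in their first base, so no place matches both. AGGAAG was found in 4 of the 7 windows, against 35.4% of the 32851 windows in the table. CGGAAG was in none of the 7, against 16.9% of all windows. Either form was thus in 4 of the 7, against 46.5% of all windows. The 4 windows with a match are shown, all on the plus strand, with the matches in capitals.
Cd34 (chr1:194938571-194938870): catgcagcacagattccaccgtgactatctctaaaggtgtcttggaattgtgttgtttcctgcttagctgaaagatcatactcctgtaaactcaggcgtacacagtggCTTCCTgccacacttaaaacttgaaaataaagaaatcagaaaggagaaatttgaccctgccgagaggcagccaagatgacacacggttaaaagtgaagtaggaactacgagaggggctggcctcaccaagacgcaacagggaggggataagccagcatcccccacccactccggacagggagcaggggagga
Emcn (chr3:137340828-137341127): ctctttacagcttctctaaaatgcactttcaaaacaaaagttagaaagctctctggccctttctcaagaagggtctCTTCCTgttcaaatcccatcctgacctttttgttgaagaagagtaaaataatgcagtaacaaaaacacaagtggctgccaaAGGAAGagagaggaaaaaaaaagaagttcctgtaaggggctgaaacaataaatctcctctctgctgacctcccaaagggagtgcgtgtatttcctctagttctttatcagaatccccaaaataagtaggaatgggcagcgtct
Egfl7, upstream start (chr2:26580833-26581132): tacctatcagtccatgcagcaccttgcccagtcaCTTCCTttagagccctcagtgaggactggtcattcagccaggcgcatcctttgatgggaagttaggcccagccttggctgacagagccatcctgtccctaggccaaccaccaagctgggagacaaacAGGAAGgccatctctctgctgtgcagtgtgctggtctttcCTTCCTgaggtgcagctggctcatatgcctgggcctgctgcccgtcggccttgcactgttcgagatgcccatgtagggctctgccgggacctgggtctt
Egfl7, next start (chr2:26583615-26583914): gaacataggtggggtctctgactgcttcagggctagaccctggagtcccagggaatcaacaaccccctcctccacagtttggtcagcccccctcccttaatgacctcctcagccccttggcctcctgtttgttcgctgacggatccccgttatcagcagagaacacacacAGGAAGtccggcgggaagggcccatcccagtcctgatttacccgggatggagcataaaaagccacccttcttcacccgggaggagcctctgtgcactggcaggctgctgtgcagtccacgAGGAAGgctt

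The third Egfl7 window and those of Cldn5 and Mcam held neither form. They held GGGCGG, the Sp-type core, 4, 1 and 5 times, a motif present in 35.7% of all windows. In the windows shown, the first base of a match stood 142 bases before the start site in Cd34, 174 and 93 bases before it in Emcn, 216, 89 and 49 bases before the upstream Egfl7 start, and 80 before and 41 after the next Egfl7 start. AGATAA, the only GATA-type form searched, and TATAAA were in none of the 7 windows. AACAAT, the only SOX-type form searched, was in that of Emcn alone. Other GATA-type and SOX-type forms were not counted and may be present, so the windows cannot be said to lack such sites. The matches given describe letters in short windows and say nothing of binding. Cd34, Emcn and Egfl7, with AGGAAG in a window, stood at 16.05%, 20.9% and 16.1% of their endothelial level in the double positive libraries. Cldn5 and Mcam, with neither of the 2 forms searched, stood at 17.4% and 19.5%. Other ETS-type sites may be present in their windows.

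The comparison of double positive with endothelial libraries sets cells that bear VE-Cadherin and GFP against cells that bear VE-Cadherin alone. Every one of the 10 genes was detected in both double positive libraries, at 8.38% to 24.4% of its mean level in endothelial libraries, with a median of 16.7%. The median was 14.2% in replicate 7 and 17.9% in replicate 8. By edgeR's quasi-likelihood test 9 of the 10 fell (adjusted p under 0.05), against 6.92% of the 12136 genes tested, and Emcn did not pass. The median log2 difference was −2.58, against 0.06 over all genes tested. The libraries did not overlap for any of the 10, with the double positive ones lower, as for 24.6% of all genes tested. In bulk pools, fewer cells of a type and less RNA per cell cannot be told apart. The summed level of the set was 499 and 669 CPM in double positive replicates 7 and 8, against 3815, 2586.5 and 3960 CPM in endothelial replicates 1, 2 and 3.

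**Figure D1:**
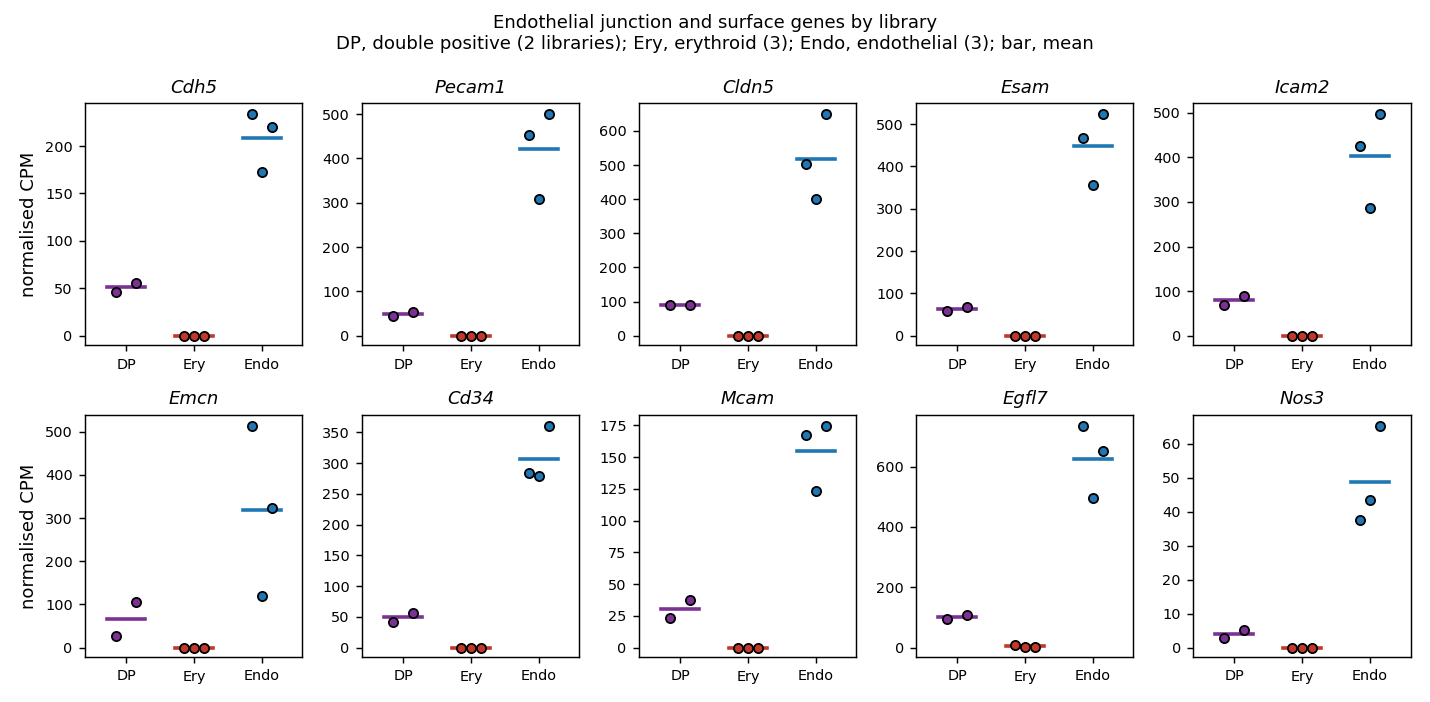
Normalised CPM of each of the 10 genes (y axis, linear, 1 panel a gene) in the double positive (DP), erythroid (Ery) and endothelial (Endo) libraries, with 1 point a library and a bar at the mean. Double positive points lie below all endothelial points in each panel, and erythroid points lie at 0 except for Egfl7, where they reach 9.09 CPM.

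Cdh5 (chromosome 8, 104101625 to 104144511, plus strand, GRCm38) encodes the adherens junction cadherin used for the sort. It had 240 and 275 counts, or 45.9 and 56.0 CPM, in double positive replicates 7 and 8, and 233, 173 and 220 CPM in endothelial replicates 1, 2 and 3. Both double positive libraries stood clear of the endothelial ones. The double positive level was 24.4% of the endothelial (95% interval of the fit 16.2% to 36.8%), a log2 difference of −2.03 (SE 0.25, adjusted p = 0.00201, edgeR). This was the highest percentage among the 10 genes. Pecam1 (chromosome 11, 106654217 to 106750628, minus strand) encodes CD31, an immunoglobulin-type adhesion protein of endothelial contacts that platelets and white cells also carry. It stood at 44.2 and 52.6 CPM in double positive replicates 7 and 8, against 453, 309 and 499 CPM in the endothelial replicates 1, 2 and 3. It was kept at 11.5% (interval 7.27% to 18.2%), with a log2 difference of −3.12 (SE 0.28, adjusted p = 0.000558). In the double positive libraries Pecam1 and Cdh5 had nearly equal counts, 231 and 258 beside 240 and 275, whereas Pecam1 had the more counts in all 3 endothelial libraries.

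Cldn5 (chromosome 16, 18776847 to 18778262, plus strand) encodes claudin-5, the tight junction strand protein of endothelium. Its levels were 90.0 and 89.5 CPM in double positive libraries, the closest agreement of any member between the pools, against 502, 401 and 648 CPM in endothelial replicates 1, 2 and 3. It was kept at 17.4% (interval 11.5% to 26.2%), with a log2 difference of −2.53 (SE 0.25, adjusted p = 0.000887). Esam (chromosome 9, 37528078 to 37538319, plus strand) encodes an immunoglobulin-type protein that sits at endothelial tight junctions and on platelets. It stood at 59.3 and 68.5 CPM in the double positive libraries and at 467, 357 and 523 CPM in endothelial replicates 1, 2 and 3. It was kept at 14.2% (interval 9.62% to 21.1%, adjusted p = 0.000442), the smallest adjusted p of the set.

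Icam2 (chromosome 11, 106377656 to 106388075, minus strand), a ligand for a leukocyte integrin, lies on the same chromosome as Pecam1. It stood at 68.8 and 89.7 CPM in double positive replicates 7 and 8, against 426, 286 and 496 CPM in endothelial replicates 1, 2 and 3, or 19.7% (interval 12.1% to 32.0%, adjusted p = 0.00241). Mcam (chromosome 9, 44134469 to 44142727, plus strand), the gene of the adhesion protein CD146, had 22.9 and 37.5 CPM in the double positive libraries, against 168, 123 and 174 CPM in endothelial replicates 1, 2 and 3. It was kept at 19.5% (interval 11.3% to 33.7%, adjusted p = 0.00385). Both genes fell, and neither came within reach of its lowest endothelial library.

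The sialomucins, heavily glycosylated proteins of the luminal surface, differed in how evenly they were measured. Cd34 (chromosome 1, 194938819 to 194961279, plus strand), which blood progenitors share with vessels, stood at 42.1 and 56.7 CPM in double positive libraries and at 283, 280 and 360 CPM in endothelial replicates 1, 2 and 3. It was kept at 16.05% (interval 10.6% to 24.2%, adjusted p = 0.00071). Emcn (chromosome 3, 137341067 to 137432185, plus strand) encodes endomucin, best known from venous and capillary endothelium. It had 145 and 518 counts, or 27.7 and 106 CPM, in double positive replicates 7 and 8, against 512, 119 and 323 CPM in endothelial replicates 1, 2 and 3. Replicate 8 reached almost the level of endothelial replicate 2, and the spread in both groups was the widest of the set. The mean was 20.9% of the endothelial level with an interval of 5.98% to 73.2%, and the difference did not pass (log2 difference −2.26, SE 0.76, adjusted p = 0.0819). Without endothelial replicate 2 Emcn passed (log2 difference −2.66, adjusted p = 0.0484), and over the 16 alternatives its adjusted p ran from 0.0371 to 0.314.

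Egfl7 and Nos3 are not adhesion proteins. Egfl7 (chromosome 2, 26580014 to 26593120, plus strand) encodes a secreted protein that endothelial cells lay down in their matrix, and its gene hosts miR-126. It had the most counts of the set, 496 and 527 in the double positive and 3043 to 5548 in the endothelial libraries. It stood at 94.8 and 107 CPM in double positive replicates and at 734, 496 and 651 CPM in endothelial replicates 1, 2 and 3, or 16.1% (interval 8.09% to 32.2%, adjusted p = 0.00385). Nos3 (chromosome 5, 24364810 to 24384474, plus strand), the endothelial nitric oxide synthase, had the fewest counts, 15 and 26 in the double positive and 266 to 403 in the endothelial libraries. It stood at 2.87 and 5.30 CPM in double positive replicates 7 and 8, against 37.7, 43.3 and 65.1 CPM in endothelial replicates 1, 2 and 3. Its 8.38% (interval 3.24% to 21.8%, adjusted p = 0.00668) was the lowest percentage of the set, and the call ended without double positive replicate 7 (adjusted p = 0.0624). Genes annotated on the other strand overlap exons of Cd34, Mcam, Egfl7 and Nos3, and the strand setting of the counting is not given in the sources used here. Of these neighbours Agpat2, against Egfl7, had 73 and 53 counts in the double positive, 0, 14 and 7 in the erythroid and 17 to 61 in the endothelial libraries. Atg9b, against Nos3, had at most 17 counts in any library.

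**Figure D2:**
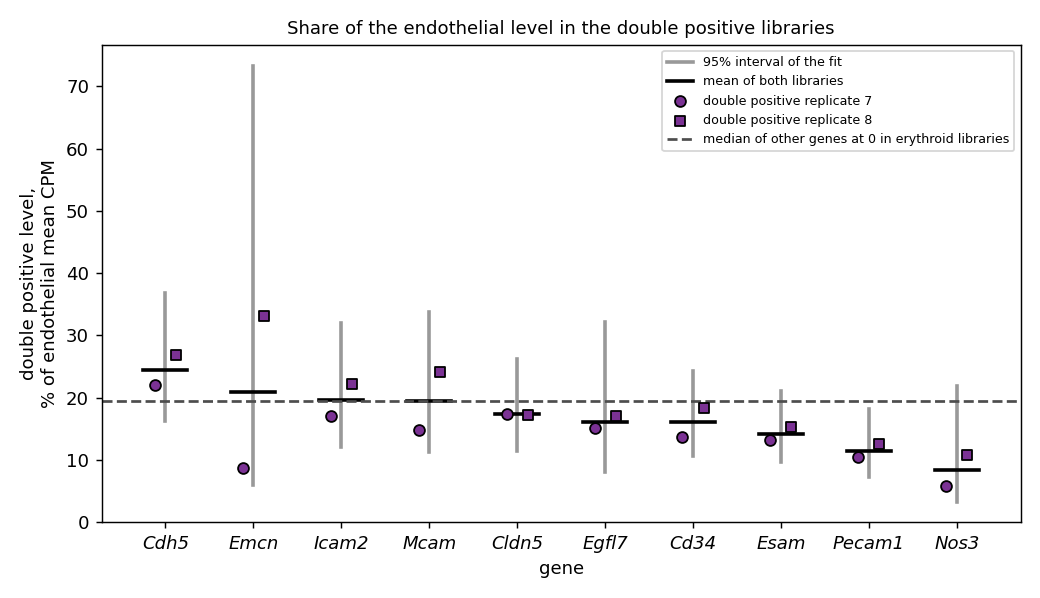
Double positive level as a percentage of the mean endothelial CPM (y axis, linear) for each gene (x axis), with 1 symbol for each double positive library, a black bar at their mean and a grey 95% interval of the fit. All 10 means lie between 8.38% and 24.4%, and the dashed line marks the median of 19.5% over the other genes at 0 in erythroid libraries.

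The shares of the members were set beside those of other genes high in endothelial and absent from erythroid libraries. Outside the set, 295 genes stood at 50 CPM or more in the endothelial libraries and had 0 counts in all erythroid libraries. Their median share was 19.5%, with quartiles at 11.6% and 34.3%, beside 16.7% for the 10 members. Cdh5 lay above 60.7% of these genes and Pecam1 above 24.4%. Nos3, at 48.7 CPM in endothelial libraries, and Egfl7, with erythroid counts, do not meet this rule themselves. Macrophage markers such as Csf1r and C1qb do, at 252 and 298 CPM in endothelial and 0 in erythroid libraries, so the 295 genes are not all endothelial. The 13 macrophage markers at 10 CPM or more in endothelial libraries kept a median of 2.33%, with a range of 0.489% to 112%. Across all 11465 tested genes with an endothelial count the median was 97.8%. Of the 14 endothelial markers outside the set, 13 fell, beside 6.92% of all genes tested. The median share of the 14 was 12.8%, with a range of 7.01% to 35.4%. In double positive replicate 8 the level was higher than in replicate 7 for 9 of the 10 members, and the erythroid marker sum was also higher there, at 138064 CPM, with 79132.5 CPM in replicate 7. Endothelial replicate 2 was the lowest of its group for 9 of the 10 members and had the highest macrophage sum, at 4285 CPM. The part of either in the members' levels was not tested. Without endothelial replicate 2 the median share was 15.4%.

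Ratios within a library do not depend on the scaling between libraries, so each member was also set against Cdh5 there. For 8 of the 9 other members the ratio to Cdh5 was lower in both double positive libraries than in any endothelial one. The same held for 3.47% of all genes tested, while 79.4% were higher without overlap. Cdh5 had the highest share of the 10 members, so lower ratios for the others largely restate that order. Of the 295 other genes high in endothelial and absent from erythroid libraries, macrophage markers among them, 60.7% were kept less than Cdh5. Pecam1 had 0.963 and 0.938 counts for each Cdh5 count in double positive libraries, against 1.94, 1.79 and 2.27 in endothelial replicates 1, 2 and 3. On the log2 scale this was a difference of −1.07 (means −0.07 and 0.99, SD 0.03 and 0.17, n = 2 and 3, exact two-sided permutation p = 0.1, adjusted 0.15). Nos3 had 0.0625 and 0.0945 counts for each Cdh5 count, against 0.161, 0.251 and 0.296, a log2 difference of −1.54 (exact permutation p = 0.1). The differences of Esam, Cd34, Egfl7, Cldn5, Mcam and Icam2 were −0.77, −0.62, −0.59, −0.47, −0.35 and −0.29. Mcam stood at −0.15 without double positive replicate 7 and −0.56 without replicate 8, and Icam2 at −0.17 without endothelial replicate 3. Emcn overlapped, with 0.604 and 1.88 in double positive and 0.689 to 2.20 in endothelial libraries (exact permutation p = 0.7). The smallest p that 2 against 3 libraries allow is 0.1, so no ratio could pass. The 9 ratios share the Cdh5 counts of the same libraries and are not independent.

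**Figure D3:**
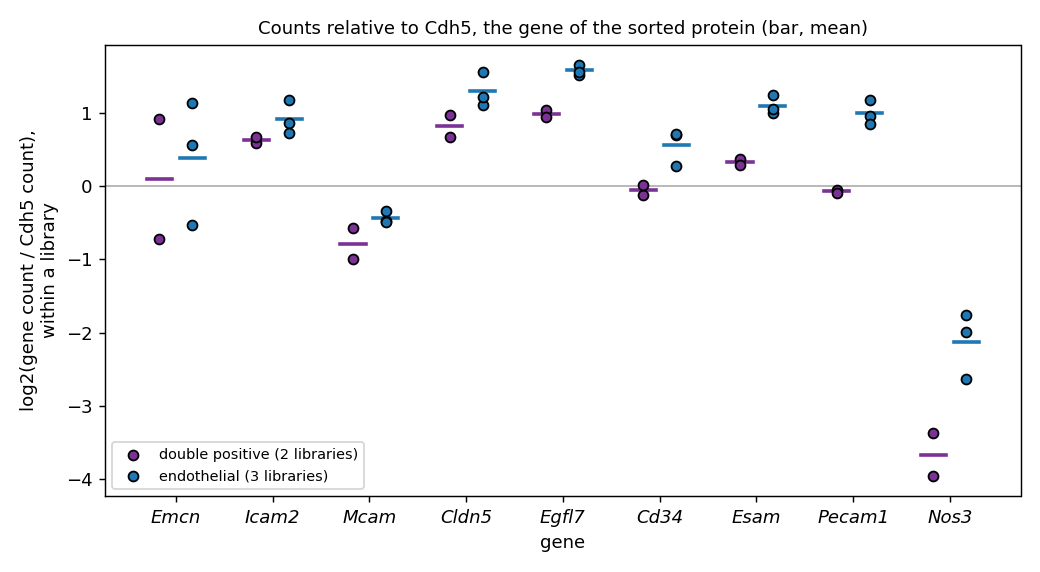
Log2 ratio of each gene's count to the Cdh5 count in the same library (y axis) for 9 genes (x axis), with 1 point a library and a bar at the mean, double positive left of endothelial. The double positive points lie below the endothelial points for 8 genes, by 0.29 to 1.54 between means, and overlap them for Emcn.

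The comparison of double positive with erythroid libraries sets GFP positive cells inside the VE-Cadherin gate against those outside it. All 10 rose in double positive against erythroid libraries by edgeR, as did 31.5% of the genes tested. The set was chosen as endothelial genes. Of the 10, 9 had no erythroid count and entered the test through the other groups, so only a rise could be called for them. No double positive library overlapped an erythroid one for any of the 10, as for 47.5% of all genes in that direction. By the fit the median log2 difference of the members was 10.99, against 0.71 over all genes tested. With the bound in place of the fit for genes at 0, the median of the members was 7.46. For 9 genes the erythroid libraries had 0 counts, and with 3 counts over the group as the floor, the double positive level was at least 14.3-fold higher for Nos3, at least 179-fold for Cdh5 and at least 314-fold for Cldn5. These bounds cover counting error only, since the reads carried no molecular identifiers. Egfl7 had 39, 8 and 6 counts in erythroid replicates 4, 5 and 6. Its level there was 9.09, 2.54 and 1.96 CPM, against 94.8 and 107 CPM in double positive libraries, which were 22.3-fold higher (log2 difference 4.39, SE 0.47, adjusted p = 0.000157). Erythroid replicate 4 was high within its group and stayed far below the double positive libraries.

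The comparison of erythroid with endothelial libraries gives the full range of each gene. All 10 fell in the erythroid libraries, where 26.6% of the genes tested were called lower. For the 9 without erythroid counts only a fall could be called. The libraries did not overlap for any member, all lower in erythroid libraries, as for 32.1% of all genes, while 18.7% were higher without overlap. The 9 genes at 0 were at least 171-fold lower for Nos3, at least 543-fold for Mcam and at least 1811-fold for Cldn5. Egfl7 was 138-fold lower, at 4.53 ± 3.96 CPM in erythroid and 627 ± 121 CPM in endothelial libraries (SD, n = 3 each, adjusted p = 1.05e-05). Of all counts in a library the 10 genes took 0.0562% and 0.0681% in the double positive, 0.000113% to 0.000512% in the erythroid and 0.426% to 0.651% in the endothelial libraries.

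Levels of different genes were compared per kilobase of annotated exon. Cldn5 was the highest in every population that expressed the set, at 63.4 ± 0.283 CPM per kb in double positive (SD, n = 2) and 365 ± 87.8 CPM per kb in endothelial libraries (SD, n = 3). In endothelial libraries Icam2 (211), Egfl7 (175) and Esam (156) followed in CPM per kb, and the ranges of neighbours in that order overlapped. Then came Pecam1 (67.5), Emcn (58.8), Cdh5 (49.6), Mcam (46.3) and Cd34 (42.2), again with overlap between neighbours, and Nos3 stood apart at 11.8 CPM per kb. The double positive libraries kept the order of Cldn5, Icam2, Egfl7 and Esam, at 63.4, 41.6, 28.2 and 22.3 CPM per kb, with no overlap between neighbours. Below them came Emcn at 12.3, Cdh5 at 12.1, Mcam at 9.02, Pecam1 at 7.77 and Cd34 at 6.77 CPM per kb, each overlapping its neighbour. Nos3 was the lowest again, at 0.988 CPM per kb. Pecam1 was the fifth in endothelial and the eighth in double positive libraries. With the longest transcript in place of all exons, the endothelial levels of Egfl7 and Icam2 came to 336 and 314 CPM per kb, near that of Cldn5.

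Proteins that work beside the members were read from lists of pathway genes. Of 17 adherens junction partners tested, 6 fell in double positive against endothelial libraries, beside 6.92% of all genes tested. The median log2 difference of the 17 was −1.01, and the 14 at 10 CPM or more in endothelial libraries kept a median of 45.2%. Ptprb, the phosphatase VE-PTP that binds VE-Cadherin in endothelium, stood at 30.8 and 31.8 CPM in double positive and at 255, 171 and 246 CPM in endothelial replicates 1, 2 and 3 (log2 difference −2.84, SE 0.28, adjusted p = 0.000776, edgeR). Arhgef15 was kept at 16.97% (adjusted p = 0.00652), a call that ended without double positive replicate 7 (adjusted p = 0.0615). Ctnna1 encodes alpha-catenin, which links cadherins to actin in many cell types. It was kept at 49.7% (adjusted p = 0.0289), a call that ended without any 1 of the 5 libraries compared. Pvrl2, the gene of nectin-2, was kept at 40.5% (adjusted p = 0.0113, and 0.126 without double positive replicate 8). Ctnnb1, the gene of beta-catenin, was picked for mention once its values were known. It averaged 272 CPM in the double positive libraries, against 270 CPM in the endothelial ones (adjusted p = 0.987). The number of partners that fell was 2 to 9 when 1 library was left out, with the smallest number without either double positive replicate, and 9 under library size alone.

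Of 15 tight and gap junction genes tested, 3 rose and 4 fell in double positive against endothelial libraries. Over all genes tested, 6.92% fell and 14.6% rose. The 3 of 15 that rose are near that share. Cgn, the gene of the epithelial tight junction protein cingulin, stood at 120 and 125 CPM in double positive libraries and had 0 endothelial counts, at least 811-fold higher (adjusted p = 4.37e-05, edgeR). Gjb2, which encodes connexin 26, was at least 694-fold higher (adjusted p = 0.000612). The arterial gap junction genes Gja5 and Gja4 fell to 8.58 ± 4.35 and 13.1 ± 5.27 CPM in the 2 double positive libraries (mean ± SD), against 104 ± 44.2 and 134 ± 62.9 CPM in endothelial libraries (SD, n = 3). Their adjusted p were 0.00715 and 0.00855, and both calls ended without double positive replicate 8 (adjusted p = 0.0515 and 0.0651). The number that fell was 1 to 5 when 1 library was left out, lowest without double positive replicate 8.

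Other surface proteins of endothelium fell as the members did. Of 20 tested, 18 fell, against 6.92% of all genes tested, with a median log2 difference of −2.80 and a median share of 16.2%. Without endothelial replicate 1, and likewise without replicate 3, 15 of 19 tested fell. Fewer than 18 also fell without either double positive replicate. Tie1, Eng, Robo4 and Plvap stand both here and among the endothelial markers above. Clec14a, an endothelial lectin-type receptor, stood at 66.5 ± 7.47 CPM in double positive (SD, n = 2) and 540 ± 78.9 CPM in endothelial libraries (SD, n = 3), with adjusted p = 0.000194 (edgeR). Plvap, the diaphragm protein of fenestrae, was kept at 8.67%, Eng, a TGF-beta co-receptor, at 8.79%, and the adhesion receptor gene Adgrf5 at 16.2%. Podxl, a sialomucin related to Cd34 that epithelia also make, stood at 85.7 ± 6.16 CPM in the double positive libraries, against 32.9 ± 6.54 CPM in the endothelial ones, and did not pass (adjusted p = 0.0836, and 0.0057 with limma-voom). Vcam1, an adhesion receptor for white cells, was the other gene that did not pass (adjusted p = 0.245). Among 9 nitric oxide pathway genes tested, 1 rose and 2 fell, beside 14.6% and 6.92% of all genes tested. The 1 that rose is near the 14.6% of all genes. Nostrin, whose product binds the synthase of Nos3, stood at 48.0 and 44.6 CPM in the double positive libraries, against 0.529, 5.05 and 1.62 CPM in endothelial replicates 1, 2 and 3 (adjusted p = 0.011). Nosip, another binding partner, was kept at 41.4% (adjusted p = 0.0243). Ddah2, which degrades an inhibitor of the synthase, was kept at 23.5% (adjusted p = 0.036), and Ddah1 was kept at 59.3% and did not pass (adjusted p = 0.0638), though it passed under 10 of 16 alternatives, with DESeq2 (0.00984) and limma-voom (0.0215) among them. The calls of Nostrin, Nosip and Ddah2 each ended without either double positive replicate. That of Nosip also ended without endothelial replicate 3 (adjusted p = 0.068, edgeR). That of Ddah2 also ended without endothelial replicate 1 and without replicate 3 (adjusted p = 0.0784 and 0.1, edgeR).

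**Figure D4:**
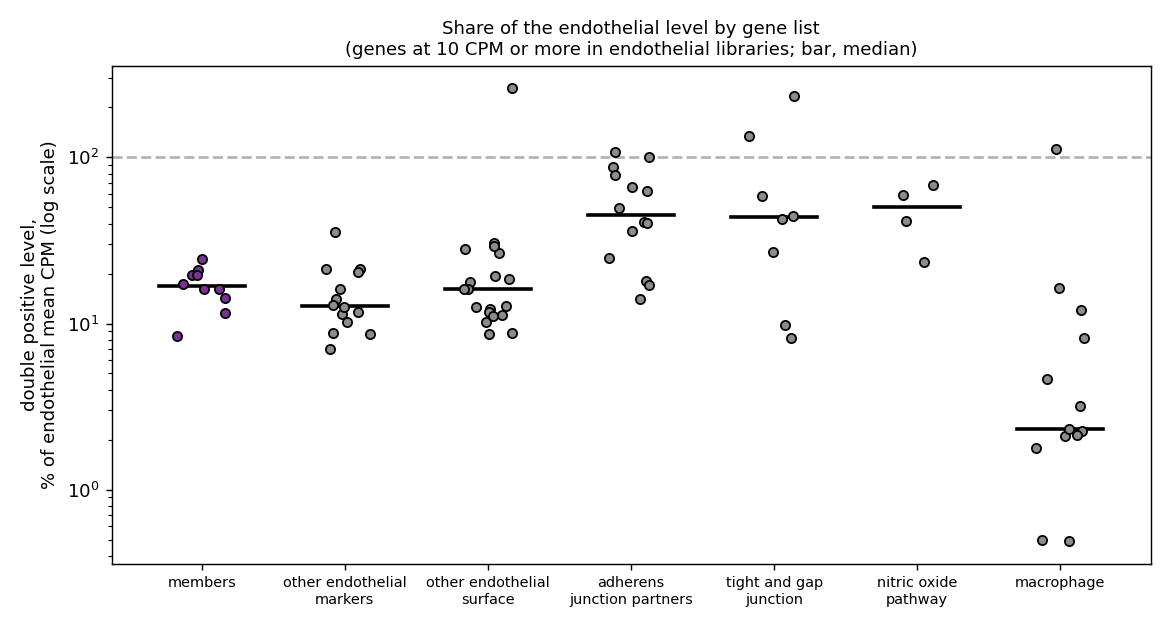
Double positive level as a percentage of the mean endothelial CPM (y axis, log scale) by gene list, with 1 point a gene at 10 CPM or more in endothelial libraries and a bar at the median. Medians are 16.7% for the members, 12.8% and 16.2% for other endothelial markers and surface genes, 45.2% for adherens junction partners and 2.33% for macrophage markers. The minimum of 10 CPM leaves out 7 of 15 tight and gap junction genes and 5 of 9 nitric oxide pathway genes, Cgn, Gjb2, Lsr and Nostrin among them, which rose, so the bars of these lists do not describe the whole lists.

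Of 28 relatives of the members listed within their protein families, 20 were tested. In double positive against endothelial libraries 11 rose and 2 fell, beside 14.6% and 6.92% of all genes tested. Except for Cldn7, those that rose had at most 2 counts in any endothelial library. They entered the test through the other groups, so only a rise could be called for them, and the 14.6% is not a like share. The number that rose was 8 without double positive replicate 7, 7 without replicate 8 and up to 13 without 1 of the other libraries. The 2 falls, Cdh2 and Icam1, each ended without any 1 of the 5 libraries compared. The same calls are counted above, Cdh2 among the adherens junction partners and Icam1 among the other surface proteins. Cldn6, a claudin of embryonic epithelia, stood at 435 ± 10.8 CPM per kb in double positive libraries (SD, n = 2), beside 63.4 ± 0.283 CPM per kb for Cldn5. It had 0 counts in the endothelial libraries, so its CPM in double positive libraries was at least 4958-fold higher (adjusted p = 7.62e-06, edgeR). Of 10 claudin relatives listed, 6 rose, and these were Cldn1, Cldn2, Cldn3, Cldn4, Cldn6 and Cldn7. Cldn7 stood at 88.4 ± 11.02 CPM per kb in double positive and 0.875 ± 0.316 CPM per kb in endothelial libraries. Cdh1, the E-cadherin of epithelia, had 595 and 437 counts in double positive libraries and 2 counts in all endothelial libraries together (adjusted p = 0.000491). Per kb it stood at 22.2 ± 3.81 CPM in double positive libraries, above the 12.1 ± 1.71 CPM of Cdh5 there. Cdh1 and Cldn6 are also visceral endoderm markers, whose list summed to 104717 and 102041 CPM in these libraries. The part of endoderm cells in the junction transcripts was not tested.

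The ICAM family divided between the lineages. Icam4, the red cell ICAM that carries the Landsteiner-Wiener blood group in humans, stood at 21.2 ± 11.8 CPM per kb in double positive (SD, n = 2) and 260 ± 79.4 CPM per kb in erythroid libraries (SD, n = 3), and had 0 counts in the endothelial libraries. The double positive level was 12.2-fold below the erythroid one (adjusted p = 0.00108, edgeR) and at least 156-fold above the endothelial one (adjusted p = 0.000491). Icam2 showed the mirror pattern, at 41.6 ± 7.75 CPM per kb in double positive and 211 ± 56.2 CPM per kb in endothelial libraries, with 0 counts in erythroid libraries. Icam1, the inducible ICAM, stood at 7.07 ± 0.672, 0.157 ± 0.160 and 23.1 ± 3.43 CPM per kb in double positive, erythroid and endothelial libraries. Cxadr, an epithelial relative of Esam, had 161 and 173 counts in double positive libraries and 0 in all others (adjusted p = 0.00456 against endothelial, and 0.0541 without double positive replicate 8). Cdh2, the N-cadherin, stood at 0.293 ± 0.126 CPM in the double positive libraries, against 8.99 ± 1.79 CPM in the endothelial ones (adjusted p = 0.0293). Cdh3, the P-cadherin, averaged 7.47 CPM in the double positive libraries and had 0 endothelial counts (adjusted p = 0.0193, and 0.175 and 0.156 without double positive replicates 7 and 8). The relatives Cldn12, Egfl8, Nos2, Bcam and Clmp did not pass (adjusted p = 0.234, 0.169, 0.234, 0.917 and 0.564), and Nos1, at 0.484 CPM in double positive libraries, was below the filter.

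**Figure D5:**
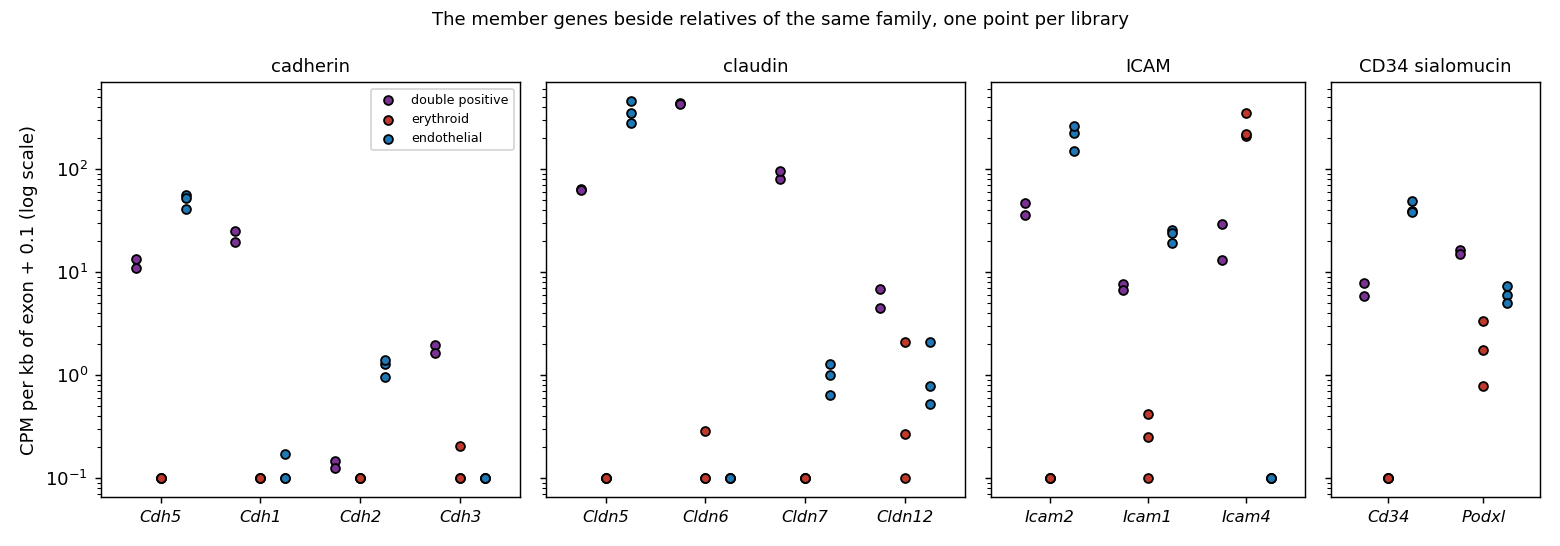
CPM per kb of exon plus 0.1 (y axis, log scale) for members and relatives of 4 families (x axis), with 1 point a library for double positive, erythroid and endothelial libraries, points at 0.1 being 0 counts. Cdh5, Cldn5 and Icam2 are highest in endothelial libraries, Cdh1 and Cldn6 in double positive and Icam4 in erythroid libraries.

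Profiles most like the members were sought among 2262 other genes at 50 CPM or more in endothelial libraries, by the root mean square difference of centred log2(CPM + 1) values over the 8 libraries. Nearest to Cdh5 were 1810011O10Rik (0.07), Ifitm2 (0.15), Ldb2 (0.17), Gng11 (0.17) and Elk3 (0.20). 1810011O10Rik stood at 48.7 ± 8.06 CPM in the double positive libraries, against 187 ± 27.4 CPM in the endothelial ones, with 0 in erythroid libraries, and was kept at 26.1% beside 24.4% for Cdh5. Nearest to the mean profile of the 10 members were Ldb2 (0.16), Adgrf5 (0.17), Thbd (0.17), Ptprb (0.18) and Colec12 (0.19). Among the members themselves, each of which is part of that mean, Cd34 (0.21) and Cdh5 (0.24) lay nearest to it and Nos3 (1.30) farthest. The 8 libraries fall into 3 populations, so these distances mostly compare 3 levels. For genes at 0 in erythroid libraries they also depend on how high a gene stands in the other libraries.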

How the data were processed

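RNA from 8 pools of sorted cells was copied and amplified with the Smart-seq2 protocol, which reads full-length polyadenylated transcripts without molecular identifiers, per the labels' protocols. The deposited values are raw read counts per gene symbol, 1 column for each library. The submitters' processing notes name FastQC, HTSeq and mm10. No aligner, annotation, strand setting or tool version is given in the sources used here.

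Libraries were grouped by sorting gate, each column matched by its sample title. Counts were filtered with filterByExpr (minimum count 10, 12136 genes left), scaled by TMM and fitted in edgeR 4.0.16 (R 4.3.3) with a robust quasi-likelihood model, 1 mean for each population over all 8 libraries. Calls used a Benjamini-Hochberg adjusted p under 0.05 over all genes tested, two-sided. Percentages kept are ratios of mean CPM, and their 95% intervals come from the fit. Ratios to Cdh5 used a pseudocount of 0.5 and exact permutation tests. Exon lengths and positions come from GENCODE M21 (GRCm38). A floor of 3 counts over a group stood for 0.

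No pair of the 28 library pairs had identical counts. The edgeR step was also tested on simulated counts with changes put in. The members and gene lists were chosen with earlier results of these data known, so no list is independent support. Genes beside the members were named by rule, as the up to 4 smallest adjusted p of each list in double positive against endothelial libraries, the highest family relatives in each population, and the 5 nearest profiles. Genes named otherwise are members of the lists, given for a count or after their values were seen. Alternatives were DESeq2 1.42.0, limma-voom (limma 3.58.1), other scalings and filters, fits of only the populations compared, and leaving out each library. Python 3.11.15 with scipy 1.17.1 was used for the ratios.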

Additional observations from a re-analysis of the deposited data

How the results depend on the processing

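Each of the 10 genes kept its direction in all 3 comparisons under all 16 alternatives. Against endothelial libraries 8 to 10 members fell in the double positive ones when 1 library was left out. Calls changed in 3 of 160 cases there, with Nos3 lost without double positive replicate 7 and Emcn gained under library size alone (adjusted p = 0.0371) and without endothelial replicate 2. All 160 calls against erythroid libraries and all 160 of erythroid against endothelial libraries were kept. The median share of the endothelial level was 10.8% under library size alone, 15.2% under relative log expression factors and 14.1% to 18.6% when 1 library was left out. Under library size alone, the middle of all genes shifted on the log2 scale by −0.63, 0.90 and −1.54 in the comparisons of double positive with endothelial, double positive with erythroid and erythroid with endothelial libraries.

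Counts over all genes depended more on the setting. For double positive against endothelial libraries, 840 were lower and 1776 higher, against 1901 and 1118 under library size alone, and 1409 and 1422 were lower with DESeq2 and with only those 2 populations. Leaving out 1 library gave 219 to 1038 lower and 696 to 1854 higher, fewest lower without double positive replicate 7 and fewest higher without replicate 8. Against erythroid libraries 1283 were lower and 3820 higher, with 473 and 5760 under library size alone, and 609 to 1348 and 2315 to 3845 when 1 library was left out. For erythroid against endothelial libraries 3232 were lower and 1745 higher, with 7270 and 420 under library size alone, and 2707 to 3158 and 1466 to 1612 when 1 library was left out.

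Ratios to Cdh5 moved by less than the replicate SD with a pseudocount of 5. When 1 library was left out the log2 difference ran from −1.14 to −0.97 for Pecam1, −1.83 to −1.25 for Nos3 and −1.11 to 0.53 for Emcn. With the longest transcript the endothelial levels in CPM per kb were 122 for Pecam1, 240.5 for Esam, 314 for Icam2, 100.4 for Cd34 and 336 for Egfl7, since a shorter length divides the same counts. No paired analysis was possible because the populations share no replicate numbers. Fits without a double positive replicate leave 1 library there, assumed to vary like the other populations. Nos3, at 15 and 26 counts, is the member most limited by depth.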
